A study of Saccharomyces cerevisiae with 30 samples.

Results

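The comparison set the transcript profile of yeast strain YKH109 against the sum of the profiles of strains YKH106 and YKH108. It rested on 7 of the 30 arrays of a series whose title names TFIID and SAGA, and on 5464 tested genes of 5547 on the array. The 7 arrays were 3 of YKH109, 2 of YKH106 and 2 of YKH108, and all were selected by the strain names in their labels. Each array held RNA of the strain and of YKH105 in its 2 channels, so YKH105 was the reference of every value. All these Saccharomyces cerevisiae cultures had the same treatment: growth at 26 °C in CSM-Trp-His medium to an OD600 near 0.8, then addition of heated medium, then 45 min at 37 °C before harvest. The labels name the strains without genotypes, so no mutation or allele was assumed for any of them. They do not say that arrays of a strain came from separate cultures, so p-values measure the spread between arrays, which may be technical. That spread was estimated per gene over 21 arrays, most of them of other strains, and was taken as equal for all. It also sets each SE.

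TFIID and SAGA are coactivators that deliver TBP, the TATA-binding protein, to promoters, and most yeast genes can draw on either. SAGA is known above all for its part in stress-induced genes, whose promoters are more often bound through a TATA box, and TFIID for its part in housekeeping genes. If changes in a pair of strains act independently, the strain that combines them is predicted to show the product of their fold changes, which is the sum of their log2 ratios. Whether YKH109 combines the changes of YKH106 and YKH108 is not stated in the labels, and the sum was used here as a yardstick for the values only.

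A gene's value on an array was the log2 ratio of the strain to YKH105 after subtraction of the array's median. The labels do not state which channel is on top of the ratio. It was read as strain over YKH105, so a positive value is a likely higher level in the strain. Turning the ratio would turn every sign, but no gene would leave its place beyond, at or short of the sum. The deviation of a gene is the YKH109 effect minus the sum of the YKH106 and YKH108 effects, fitted with limma over 21 arrays with a dye term. A deviation was called at a Benjamini-Hochberg adjusted p under 0.05 over all 5464 genes. A called gene was beyond the sum if its deviation had the sign of a sum of at least 0.5 in size, and short of the sum if it had the opposite sign. A gene that was not called was at the sum only if the 95% interval of its deviation lay within 1 log2 unit on each side of 0, and was unresolved otherwise.

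One YKH109 array stood apart from the others. Array 2 carried 5955 values, against 6338 and 6369 on arrays 1 and 3, and its values had an SD of 1.16 over genes, against 0.83 and 0.77. It correlated across genes at r = 0.51 with array 1 and r = 0.56 with array 3, while arrays 1 and 3 correlated at r = 0.79. The YKH108 arrays correlated at r = 0.78 and the YKH106 arrays at r = 0.29. Genes are not independent replicates, so these coefficients describe the arrays only. The counts of called deviations and of their classes over all genes tested are therefore given with and without YKH109 array 2.

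Called deviations from the sum were mostly downward, while over all genes tested 2745 deviations were above 0 and 2719 below. YKH109 lay below the sum for 56 genes (1.02% of the genes tested) and above it for 7 (0.128%), which made 63 called genes (1.15%). The largest downward deviations belonged to ASK10, a regulator of the glycerol channel, and LCL1, both by more than 2 log2 units, and the largest upward deviation to YAR068W, at 2.01. Without YKH109 array 2, 46 genes were below the sum (0.842%) and 9 above it (0.165%). The effects that entered the sum were of very unequal size: against YKH105, 2897 genes were called in YKH109 (53.0%), 60 in YKH106 (1.1%) and 2034 in YKH108 (37.2%). The higher calls were 1373 in YKH109 (25.1%), 35 in YKH106 (0.641%) and 938 in YKH108 (17.2%), and the lower calls 1524 in YKH109 (27.9%), 25 in YKH106 (0.458%) and 1096 in YKH108 (20.1%). The SD of the fitted effects over genes was 0.759 in YKH109, 0.284 in YKH106 and 0.624 in YKH108. Within the sum, the YKH108 effect therefore varied more over genes than the YKH106 effect.

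The 63 calls had the same sign in each of the 12 choices of 1 array per strain, and their deviations measured between 0.78 and 2.19 in size. The genes were called on these same arrays, so a sign kept over choices or subsets of them was largely fixed in advance. Their place past the threshold depended on which array was left out. The counts fell to 13 and 11 when YKH106 array 1 or 2 was left out, to 32 and 17 without YKH108 array 1 or 2, and to 12 without YKH109 array 1. They were 55 without YKH109 array 2 and 58 without YKH109 array 3. SUR1, ISA1, GSC2, HHO1 and YAR068W were called in all 7 of these fits, and all 63 genes kept their sign in all of them. With the same arithmetic on single arrays, a deviation of at least 1 log2 unit in size occurred in 0.771% to 1.83% of genes when YKH105 self arrays, with YKH105 in both channels, stood in place of the strains, and in 1.47% to 20.4% when YJS6 self arrays, with the series' other reference strain in both channels, did. It occurred in 4.82% to 18.7% of genes when the strain arrays were used, a range that overlaps with that of the YJS6 self arrays, with the highest shares in the combinations that held YKH109 array 2.

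**Figure D1:**
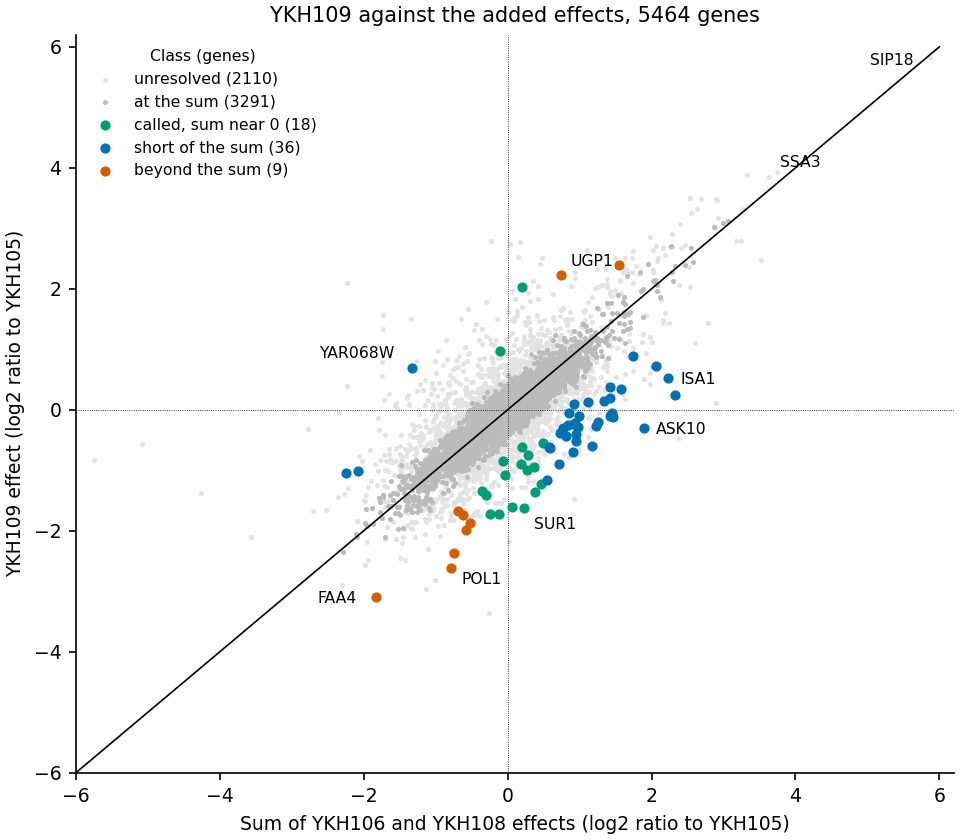
Fitted log2 effect in YKH109 (vertical axis) against the summed log2 effects of YKH106 and YKH108 (horizontal axis), 1 point per gene for 5464 genes, with the line of equality. Called genes are coloured by their place: most of the 63 lie below the line, and of the 36 that are short of the sum 33 have a sum above 0.

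Among the 63, 9 genes were beyond the sum, 36 were short of it, and 18 had a sum of under 0.5 in size. In 24 of the 36 that were short, YKH109 and the sum had opposite signs. Of the genes that were not called, 3291 (60.2% of those tested) were at the sum within the stated margin, and 2110 (38.6%) were unresolved. The 3291 genes at the sum held 1265 with a sum of at least 0.5 in size and 340 with a sum of at least 1. The median standard error of a deviation was 0.284, and the 95% interval reached a median of 0.619 to each side. With a margin of 1.5-fold in place of 2-fold, 772 genes were at the sum and 4629 were unresolved. Without YKH109 array 2, 8 genes were beyond, 32 short, 15 had a sum near 0 and 3449 were at the sum. An error in the sum enters the deviation with the opposite sign, which moves genes towards short of the sum. When the direction was taken from the mean of the YKH109 effect and the sum, 17 genes were beyond, 17 short and 29 near 0.

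A first set of genes was lower in YKH109 than in YKH105 but higher in YKH108. Of the 56 genes below the sum, 40 were called higher in YKH108, against 17.2% of all genes. The YKH108 effect enters the deviation with a minus sign, so genes with a low deviation hold more such genes by construction. Of these 40, YKH109 was called lower in 19, against 27.9% of all genes, not called in 16 and called higher in 5, against 25.1%. The YKH109 effect enters the deviation with a plus sign, so a low deviation also favours low YKH109 values by construction. SUR1, whose product takes part in the synthesis of mannosylated sphingolipids, had log2 ratios of -1.61, -1.53 and -1.73 on the YKH109 arrays, against -0.98 and -1.09 in YKH106 and 1.18 and 1.34 in YKH108. Every YKH109 array was below both YKH106 arrays, and every YKH108 array was above 0. The YKH109 effect of -1.62 stood against a sum of 0.22, and the deviation was -1.85 ± 0.18 (SE; limma adjusted p = 0.00129). GSC2, which encodes an alternative subunit of glucan synthase, gave -1.37, -1.47 and -2.02 in YKH109, against -0.66 and -0.72 in YKH106 and 0.79 and 0.71 in YKH108. Its groups did not overlap, and the deviation was -1.67 ± 0.22 (adjusted p = 0.00705).

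Glycerol-3-phosphate dehydrogenase GPD2 and glycerol-3-phosphatase GPP1, which catalyse successive steps of glycerol synthesis, had the same order of strains. GPD2 measured -1.52, -1.40 and -1.15 in YKH109, against 0.06 and -0.45 in YKH106 and 0.71 and 0.46 in YKH108. Its 3 YKH109 values were below all 4 others, and the deviation was -1.75 ± 0.27 (adjusted p = 0.0143). GPP1 measured -0.68, -1.20 and -0.87 in YKH109, against -0.11 and -0.21 in YKH106 and 0.89 and 0.86 in YKH108. It deviated by -1.62 ± 0.25 (adjusted p = 0.0143). Their isoenzymes GPD1 and GPP2 were higher than YKH105 in both YKH109 and YKH108 and lay at the sum. GPD1 had a YKH109 effect of 1.38, with no value on array 2, against a sum of 1.38 (95% interval of the deviation -0.47 to 0.48), and GPP2 had 0.83 against 0.77 (interval -0.42 to 0.53). GPP1, GPD1 and GPP2 were set beside GPD2 after their values were seen. GPD2 and GPP1 each passed the threshold in 4 of the 7 fits with an array left out, with adjusted p up to 0.096 for GPD2 and 0.086 for GPP1.

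MSB2, a mucin-like osmosensor of the cell surface, was among those with opposite signs. It measured -0.52, -0.64 and -0.76 in YKH109, against 0.00 and -0.04 in YKH106 and 1.07 and 1.32 in YKH108. The 3 groups did not overlap, and the deviation was -1.77 ± 0.30 (adjusted p = 0.0231). The protein kinase gene TDA1 had -1.23, -1.12 and -1.22 in YKH109, against -0.17 and -0.90 in YKH106 and 0.71 and 1.44 in YKH108, a deviation of -1.71 ± 0.33 (adjusted p = 0.0321). Both arrays of YKH108 were above 0 and all of YKH109 and YKH106 below it. MSB2 was called in 3 and TDA1 in 2 of the 7 fits with an array left out, and their adjusted p reached 0.15 for MSB2 and 0.21 for TDA1.

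**Figure D2:**
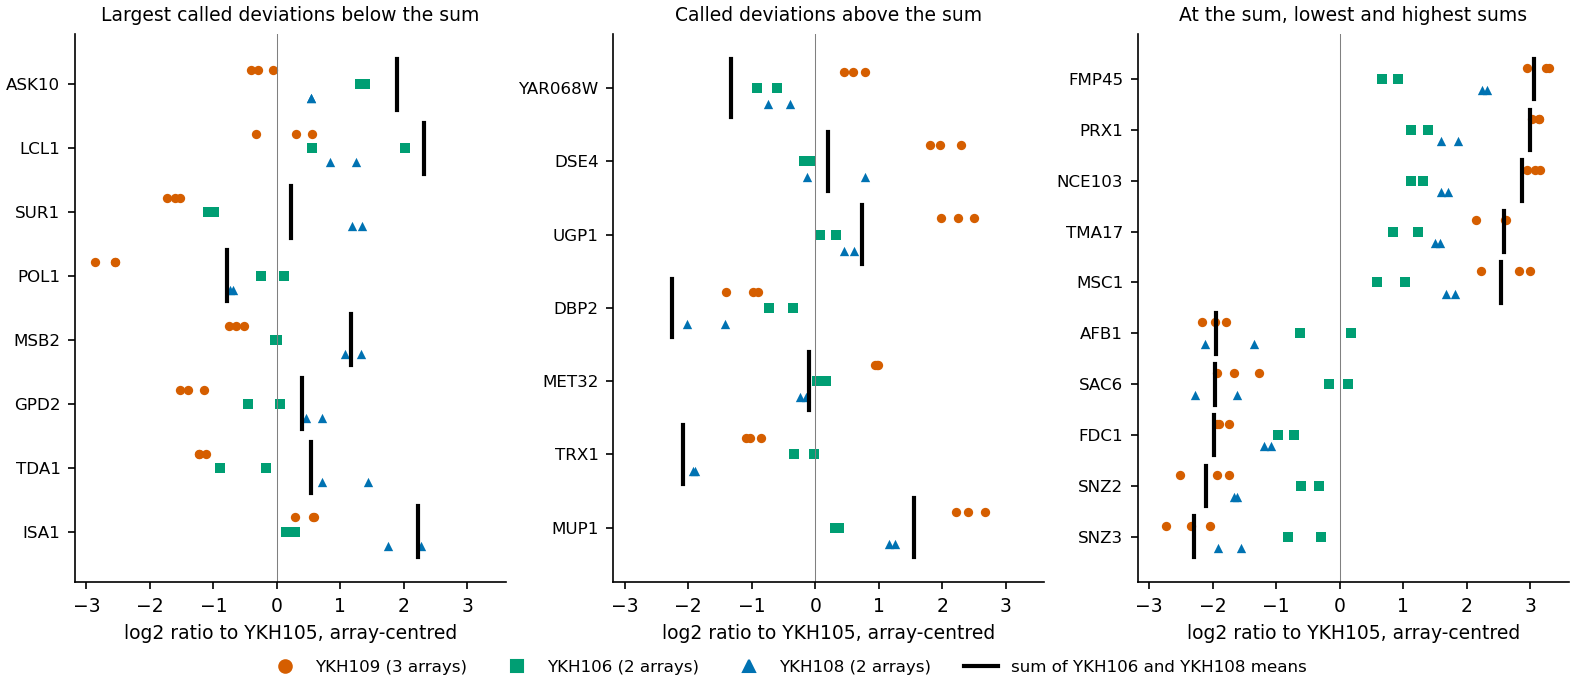
Median-centred log2 ratio to YKH105 on every array (1 point per array; YKH109, then YKH106, then YKH108) for named genes below, above and at the sum, with a bar at the sum of the YKH106 and YKH108 means. The YKH109 points of SUR1 lie between -1.73 and -1.53 with a sum of 0.22, and those of YAR068W between 0.45 and 0.79 with a sum of -1.32.

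A second set was higher in YKH108 or YKH106 and closer to the YKH105 level in YKH109. ISA1, an assembly factor of mitochondrial iron-sulfur proteins, had 0.57, 0.29 and 0.58 in YKH109, against 0.28 and 0.15 in YKH106 and 2.27 and 1.75 in YKH108. YKH109 overlapped with neither YKH106 nor YKH108 and lay just above YKH106. The YKH109 effect was 0.53 and the sum 2.22, a deviation of -1.70 ± 0.19 (adjusted p = 0.00279). ASK10 had -0.41, -0.30 and -0.06 in YKH109, against 1.39 and 1.31 in YKH106 and 0.53 and 0.54 in YKH108. It differed from the genes above in that YKH106 carried most of the sum of 1.89, and the deviation was -2.19 ± 0.37 (adjusted p = 0.0231). LCL1 had 0.56, -0.34 and 0.29 in YKH109, against 2.01 and 0.55 in YKH106 and 1.25 and 0.84 in YKH108. The highest YKH109 value was level with the lower YKH106 value, the YKH106 arrays were far apart, and the deviation was -2.08 ± 0.37 (adjusted p = 0.0242), with estimates from -2.67 to -1.52 when an array was left out. ASK10 was called in 2 and LCL1 in 3 of those 7 fits, with adjusted p up to 0.12 for ASK10 and 0.13 for LCL1.

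TSA2, a stress-inducible peroxiredoxin, was at -0.03, -0.14 and -0.07 in YKH109, against 0.26 and 0.50 in YKH106 and 1.20 and 0.98 in YKH108, and deviated by -1.58 ± 0.30 (adjusted p = 0.0291). QCR6, a subunit of respiratory complex III, was at 0.04, 0.31 and 0.09 in YKH109, against -0.02 and 0.28 in YKH106 and 1.12 and 1.31 in YKH108, and deviated by -1.20 ± 0.19 (adjusted p = 0.0143). HIS5, an aminotransferase of histidine synthesis, was at -0.22, -0.23 and 0.10 in YKH109, against 0.09 and 0.07 in YKH106 and 1.03 and 0.79 in YKH108, and deviated by -1.10 ± 0.20 (adjusted p = 0.0279). In these 3 genes the YKH108 arrays stood alone above the other 5. TSA2 was called in 1, QCR6 in 4 and HIS5 in 2 of the 7 fits with an array left out, with adjusted p up to 0.15 for TSA2, 0.10 for QCR6 and 0.15 for HIS5. UPC2, a transcription factor of sterol genes, belonged to neither set: of the 3 strains, only YKH109 was called against YKH105. It had a sum of -0.04 and a YKH109 effect of -1.08, a deviation of -1.04 ± 0.22 (adjusted p = 0.0477). That deviation missed the threshold in every fit with an array left out, with estimates from -1.30 to -0.81.

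The 9 genes beyond the sum were lower in YKH109 than the sum in 7 cases. These 7 were POL1, SEC53, HHO1, RSR1, FAA4, DOG1 and HXK2. POL1, the catalytic subunit of DNA polymerase alpha, had -2.55, -2.87 and -2.56 in YKH109, against -0.25 and 0.11 in YKH106 and -0.69 and -0.73 in YKH108. All its YKH109 values were far below every other array, and the effect of -2.61 exceeded the sum of -0.79 by -1.82 ± 0.32 (adjusted p = 0.0242). HHO1, the linker histone, had -1.82, -2.19 and -2.10 in YKH109, against 0.00 and -0.51 in YKH106 and -0.08 and -0.56 in YKH108. The YKH106 and YKH108 arrays of HHO1 overlapped with each other and not with YKH109, and the deviation was -1.41 ± 0.17 (adjusted p = 0.00363). FAA4, a long-chain acyl-CoA synthetase, was the 1 downward gene beyond the sum with a sum past 1 in size. It had -3.22, -3.33 and -2.71 in YKH109, against -0.21 and -0.29 in YKH106 and -1.68 and -1.47 in YKH108, and deviated by -1.26 ± 0.25 (adjusted p = 0.0328). HXK2, the main hexokinase during growth on glucose, had -1.49, -2.07 and -1.59 in YKH109, against 0.18 and -0.40 in YKH106 and -0.46 and -0.70 in YKH108, and deviated by -0.97 ± 0.20 (adjusted p = 0.0428). POL1 was called in 3, FAA4 in 1 and HXK2 in 1 of the 7 fits with an array left out, with adjusted p up to 0.16 for POL1, 0.24 for FAA4 and 0.24 for HXK2.

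The other 2 genes beyond the sum were UGP1 and MUP1, both higher. UGP1 encodes UDP-glucose pyrophosphorylase, which supplies the precursor of glycogen, trehalose and cell wall glucan. It measured 2.25, 2.51 and 1.98 in YKH109, against 0.33 and 0.07 in YKH106 and 0.62 and 0.46 in YKH108. All YKH109 values exceeded the others by more than 1 log2 unit, and the effect of 2.23 exceeded the sum of 0.74 by 1.5 ± 0.27 (adjusted p = 0.0242). MUP1, the high-affinity methionine permease, measured 2.22, 2.41 and 2.68 in YKH109, against 0.31 and 0.37 in YKH106 and 1.17 and 1.26 in YKH108. Its deviation of 0.84 ± 0.18 was near the threshold (adjusted p = 0.046) and was called in none of the 7 fits with an array left out (adjusted p up to 0.32). UGP1 was called in 2 of them, with adjusted p up to 0.16.

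Of the 5 remaining genes above the sum, YAR068W showed opposite signs. It measured 0.79, 0.59 and 0.45 in YKH109, against -0.59 and -0.92 in YKH106 and -0.39 and -0.74 in YKH108. It was called lower in both YKH106 and YKH108 and higher in YKH109, and it deviated by 2.01 ± 0.24 (adjusted p = 0.00363). DSE4, a glucanase that the daughter cell uses in separation from the mother, measured 1.96, 1.80 and 2.30 in YKH109, against -0.06 and -0.18 in YKH106 and 0.78 and -0.12 in YKH108, a deviation of 1.82 ± 0.34 (adjusted p = 0.0291). MET32, a regulator of methionine biosynthesis genes, measured 0.97, 0.94 and 1.0 in YKH109, against 0.16 and 0.03 in YKH106 and -0.25 and -0.15 in YKH108, a deviation of 1.08 ± 0.17 (adjusted p = 0.015). For DSE4 and MET32 the sum was near 0 and only YKH109 was called against YKH105. The DEAD-box RNA helicase DBP2 and the thioredoxin TRX1 were lower in YKH109 than in YKH105 but above the sum. DBP2 had a YKH109 effect of -1.04 against a sum of -2.25, and TRX1 had -1.01 against -2.08, which left deviations of 1.21 ± 0.24 for DBP2 (adjusted p = 0.038) and 1.07 ± 0.23 for TRX1 (adjusted p = 0.0442). DSE4 and MET32 were called in 2, and DBP2 and TRX1 in 1, of the 7 fits with an array left out, with adjusted p up to 0.18 for DSE4, 0.10 for MET32, 0.27 for DBP2 and 0.34 for TRX1.

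Some of the strongest YKH109 effects lay at the sum. PRX1, the mitochondrial peroxiredoxin, measured 3.14, 3.03 and 3.14 in YKH109, against 1.39 and 1.12 in YKH106 and 1.87 and 1.60 in YKH108. Each strain was above YKH105 on all arrays, and the YKH109 effect of 3.09 stood against a sum of 2.99, with a 95% interval of the deviation of -0.52 to 0.72. NCE103, a carbonic anhydrase, measured 2.94, 3.16 and 3.07 in YKH109, against 1.31 and 1.12 in YKH106 and 1.60 and 1.71 in YKH108. Its effect of 3.02 stood against a sum of 2.87 (interval -0.44 to 0.74). TMA17, an assembly chaperone of the proteasome, had an effect of 2.44 against a sum of 2.58 (interval -0.62 to 0.34). FMP45, a membrane protein of the eisosome family, had 3.12 against 3.07 (interval -0.75 to 0.85), and MSC1 had 2.67 against 2.54 (interval -0.68 to 0.94), but in FMP45 and MSC1 the YKH106 share of the sum was not called.

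At the low end, FDC1, a ferulic acid decarboxylase, measured -1.74, -1.91 and -1.94 in YKH109, against -0.72 and -0.97 in YKH106 and -1.19 and -1.08 in YKH108. It was lower than YKH105 in all 3 strains, and its effect of -1.86 stood against a sum of -1.98 (interval -0.31 to 0.54). SNZ3 of vitamin B6 metabolism had -2.35 against -2.29 (interval -0.81 to 0.69) and SNZ2 had -2.05 against -2.11 (interval -0.54 to 0.66). SNZ2 and SNZ3 are near-identical copies whose spots may bind both transcripts, so they are not separate evidence. SAC6, the actin-bundling fimbrin, had -1.63 against -1.97 (interval -0.32 to 0.99), and AFB1, an a-factor barrier protein, had -1.91 against -1.95 (interval -0.61 to 0.69). Of the strains in the sum, only YKH108 was called for SNZ3, SNZ2, SAC6 and AFB1. For SAC6 and AFB1 the sum was close to the YKH108 effect. SIP18, a desiccation protein chosen after its values were seen, measured 5.30, 6.85 and 5.64 in YKH109, against 2.17 and 3.81 in YKH106 and 2.40 and 3.36 in YKH108. Its effect of 5.81 was close to the sum of 5.87, but the interval of -1.10 to 0.98 left it unresolved.

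YKH109 was also set directly against YKH108, the part of the sum that varied more over genes. Here 287 genes differed (5.25%), of which 83 were higher in YKH109 (1.52%) and 204 lower (3.73%). Of the 63 genes called against the sum, 59 were among these 287, with the same sign. The 2 comparisons share the YKH109 and YKH108 arrays. Without YKH109 array 2, 272 genes differed on the centred scale. On the deposited scale, with all arrays, 12 genes differed (0.22%).

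Among the genes called in both YKH106 and YKH108, 28 were called higher in both, and 27 of them were called higher in YKH109, against 25.1% of all genes. Their median effect was 2.10 in YKH109, 0.91 in YKH106 and 1.13 in YKH108, against a median sum of 2.16, and their median deviation was -0.09. Of these 28, 16 were at the sum, against 60.2% of all genes, and 2, LCL1 and MCH4, were called below it, against 1.02%. YKH109 exceeded YKH108 with a call in 16 of them, against 1.52% of all genes. A further 5 genes were called lower in both strains: FDC1, HXT16, MSN4 and ZRT2 were at the sum and YAR068W was above it.

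The 15 genes called lower in YKH106 and higher in YKH108 had a median effect of -0.55 in YKH109, -0.86 in YKH106 and 1.26 in YKH108. Their median sum was 0.27 and their median deviation -0.92, or -0.99 without YKH109 array 2, beside 0.00 over all 5464 genes. YKH109 was below 0 in 11 of the 15, with 10 called lower, against 27.9% of all genes, and 3 called higher, against 25.1%. Of the 15, 6 were called below the sum (SUR1, GSC2, RME1, DIA1, YOR062C and YJL107C), against 1.02% of all genes, 5 were at the sum, against 60.2%, and 14 were called lower in YKH109 than in YKH108, against 3.73% of all genes. RME1, a repressor of meiosis, measured -0.41, -0.65 and -0.93 in YKH109, against -0.54 and -0.71 in YKH106 and 1.39 and 1.04 in YKH108. The YKH109 and YKH106 ranges overlapped, both lay below YKH108, and the deviation was -1.22 ± 0.19 (adjusted p = 0.0143). DIA1 gave -0.60, -0.46 and -0.56 in YKH109, against -0.86 and -0.79 in YKH106 and 1.38 and 1.25 in YKH108, with a deviation of -1.03 ± 0.16 (adjusted p = 0.0143). AQY2, a water channel gene, was instead above 0 in YKH109, with 1.06, 0.34 and 0.50 in YKH109, against -0.54 and -1.32 in YKH106 and 2.16 and 1.55 in YKH108, and it was at the sum (interval -0.83 to 0.35). With an array left out, the estimates of the deviation ran from -1.34 to -1.11 for RME1 and from -1.13 to -0.94 for DIA1. SUR1 and GSC2 were called in every such fit, and RME1, DIA1, YOR062C and YJL107C were not. The opposite combination, higher in YKH106 and lower in YKH108, held 2 genes, ACB1 and HYR1, and neither was called in the deviation. The YKH108 effect enters both the deviation and the difference from YKH108 with a minus sign. Genes picked as higher in YKH108 therefore hold more lower calls by construction. Of all 938 genes called higher in YKH108, 40 were below the sum. These sets were formed from calls that share the YKH105 reference, and the sum was built from the same calls, so their medians and counts describe the sets and carry no test.

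**Figure D3:**
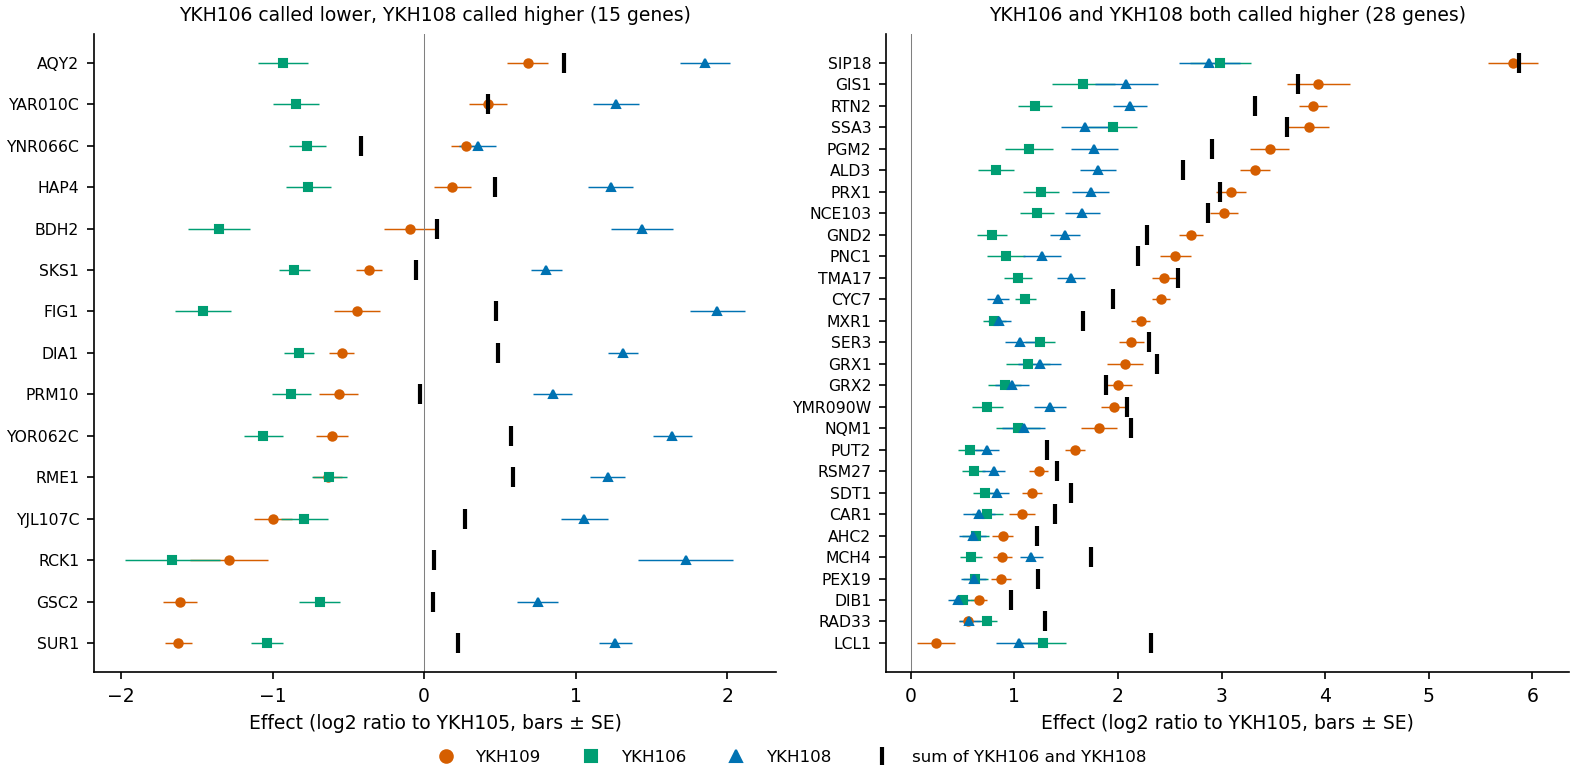
Fitted log2 effects (horizontal axis; bars, SE) in YKH109, YKH106 and YKH108 with a vertical mark at the sum of YKH106 and YKH108, 1 gene per line, for the genes called in both YKH106 and YKH108. The 28 genes higher in both have a median of 2.10 in YKH109 and 2.16 in the sum, while the 15 genes lower in YKH106 and higher in YKH108 have a median of -0.55 in YKH109 and 0.27 in the sum.

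The median deviation changed with the size of the sum. For the 22 genes with a sum below -2 the median effect in YKH109 was -1.33, against a median sum of -2.29, and the median deviation was 1.13. For the 438 genes with a sum between -2 and -1 the medians were -1.12 in YKH109 and -1.25 in the sum. In the range of sums from 1 to 2, with 280 genes, they were 0.98 in YKH109 and 1.23 in the sum, and for the 62 genes with a sum of at least 2 they were 2.49 in YKH109 and 2.38 in the sum. The median deviation was 0.16 for sums between -2 and -1, -0.25 for sums from 1 to 2 and 0.07 for sums of at least 2. The lowest range of sums holds few genes, and an extreme sum partly holds its own error, which enters the deviation with the opposite sign.

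Since 1.15% of all genes were called against the sum, a list without a called gene is near the background at these list sizes. The absence of a call does not place a list's genes at the sum, because uncalled genes may be unresolved. The 134 tested cytosolic ribosomal protein genes held no call, and their median effect was -0.80 in YKH109 against a median sum of -0.93. Of these 134, 98 were at the sum, against 60.2% of all genes. The 50 general stress genes had a median effect of 1.98 in YKH109 against a median sum of 1.59. Their median deviation was 0.27 (0.22 without YKH109 array 2), with no call in either direction. Of the 50, 14 were at the sum, against 60.2% of all genes, and the others were unresolved. In the stress list 15 genes were called higher in YKH109 than in YKH108, against 1.52% of all genes, and none lower, against 3.73%. Among the 15 were SIP18 by 2.93, the reticulon gene RTN2 by 1.76 and the phosphoglucomutase gene PGM2 by 1.69. Heat shock genes, 30 in number, had a median deviation of 0.30 (0.26 without YKH109 array 2) with no call, and 14 were at the sum. Of the 30, 5 were called higher in YKH109 than in YKH108, against 1.52% of all genes, and 0 lower, against 3.73%. On the deposited scale, on which the median deviation of all genes was -0.39, the median deviation of the stress list was -0.14 and that of the heat shock list -0.12. The scales differ by a constant for genes with a value on every array. The place of a list relative to the median gene was therefore largely fixed in advance.

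Genes of the G1 and S phases had a negative median deviation. Of 43 tested, 3 were called below the sum (POL1, POL30 and RAD27), against 1.02% of all genes, and none above it, against 0.128%. The median deviation was -0.35 (-0.33 without YKH109 array 2), and the median effect was -0.38 in YKH109 against a median sum of -0.16. POL30, the sliding clamp of DNA replication, had a YKH109 effect of -0.69 against a sum of 0.91, and RAD27, the flap endonuclease, had -1.41 against -0.30. Their deviations were -1.60 ± 0.33 for POL30 (adjusted p = 0.0428) and -1.12 ± 0.19 for RAD27 (adjusted p = 0.0231), called in 1 of the 7 fits with an array left out for POL30 and in 3 for RAD27. In the same list 8 genes were called lower in YKH109 than in YKH108, against 3.73% of all genes, among them the G1 cyclin genes CLN1, by -1.80, and CLN2, by -1.54. CLN1 missed the threshold against the sum, with a deviation of -1.37 ± 0.33 (adjusted p = 0.0886).

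The 31 sulfur and methionine genes had MET32 and MUP1 called above the sum, against 0.128% of all genes, none below it, and a median deviation of 0.18 (0.37 without YKH109 array 2). YKH109 exceeded YKH108 with a call in 8 of them, against 1.52% of all genes, among them the sulfate permease gene SUL2 by 1.31 and STR3, an enzyme of methionine synthesis, by 1.26. It was lower in 1, the methyltransferase gene SAM4, by -0.56, against 3.73% of all genes. The 61 amino acid biosynthesis genes held 2 calls below the sum, HIS5 and ARO3, against 1.02% of all genes, and had a median deviation of -0.25. Among the 21 trehalose and glycogen genes UGP1 was the 1 call, and the median deviation was 0.11 (0.27 without YKH109 array 2). The 66 mitochondrial ribosomal protein genes had a median effect of 0.45 in YKH109 against a median sum of 0.63, and the 20 tricarboxylic acid cycle genes 0.98 in YKH109 against 0.98 in the sum. Neither of these lists held a call. No member of the lists for TFIID (13 genes), SAGA (17), TBP and its regulators (15) or the proteasome (37) was called against the sum, which is again near the background share, and their median deviations lay between 0.01 and 0.14.

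**Figure D4:**
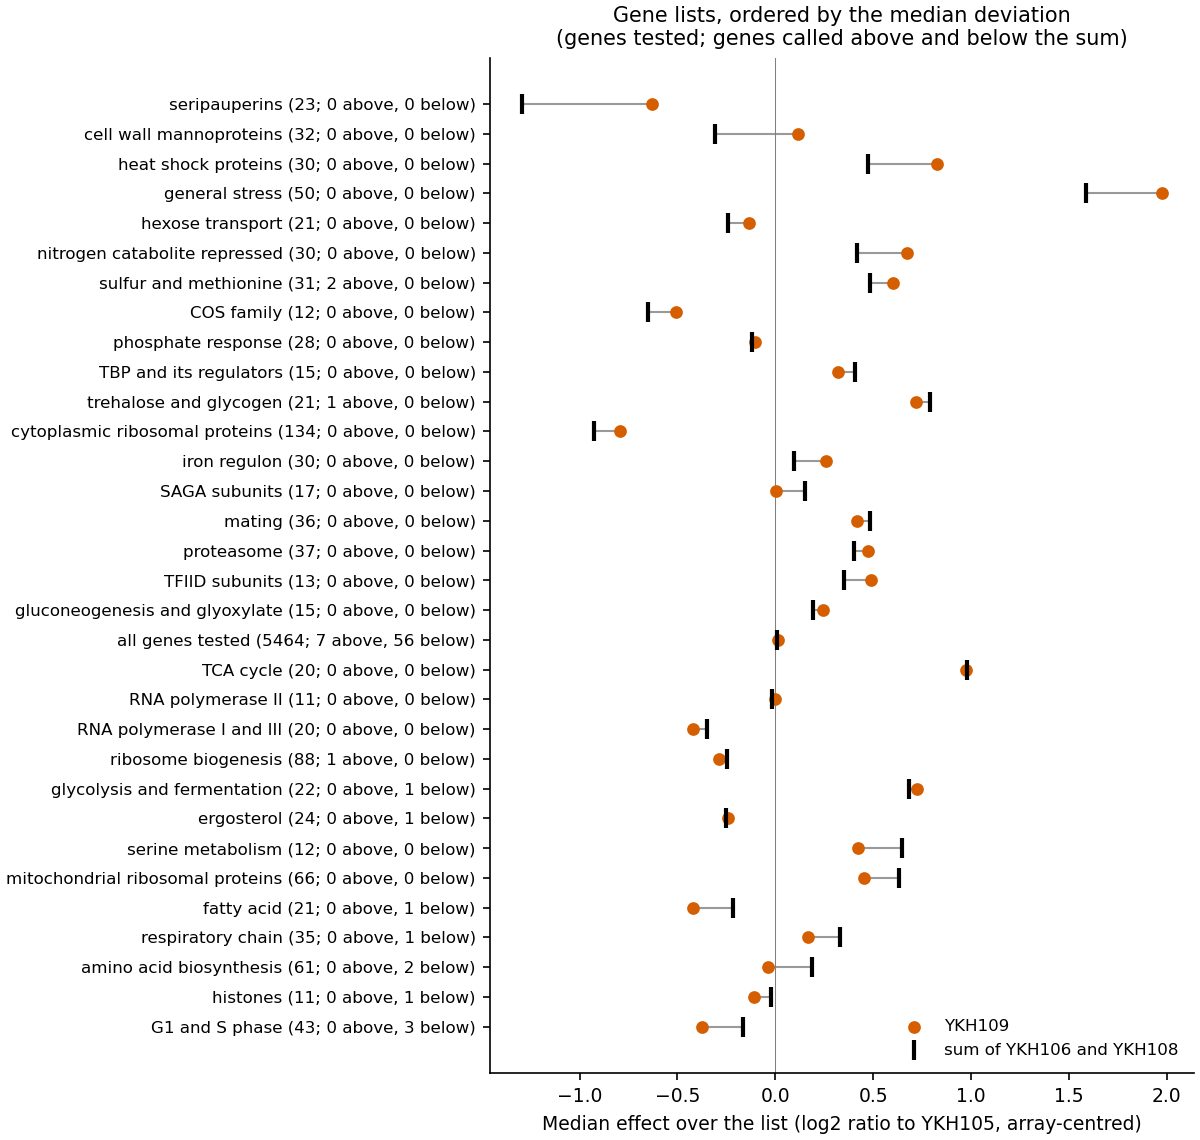
Median log2 effect over each gene list in YKH109 (circle) and median sum of YKH106 and YKH108 (vertical mark), with the genes tested and called beside each name, ordered by the median deviation. The general stress list lies at 1.98 in YKH109 and 1.59 in the sum, and the G1 and S phase list at -0.38 and -0.16, beside 0.02 and 0.01 over all genes.

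Transcripts of the complexes themselves were followed as a check of the strains. SPT3, a SAGA subunit that contacts TBP, had -0.74, -0.69 and -0.29 in YKH109, against -1.12 and -0.99 in YKH106 and 1.01 and 1.86 in YKH108. It was called higher in YKH108 only, YKH109 was lower than YKH108 by -2.02 (adjusted p = 0.00741), and the deviation of -0.96 ± 0.48 was not called (adjusted p = 0.602, interval -2.01 to 0.09). TAF1, the largest subunit of TFIID, had 0.48, 0.65 and 0.76 in YKH109, against -0.23 and 0.20 in YKH106 and 0.12 and 0.56 in YKH108, and was at the sum (interval -0.28 to 0.77). GCN5, the acetyltransferase of SAGA, and SPT15, which encodes TBP, were at the sum as well, with intervals of -0.81 to 0.52 for GCN5 and -0.38 to 0.66 for SPT15.

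On the deposited scale, without centring, no deviation was called by limma. At an unadjusted p under 0.05 there were 204 genes, against 500 on the centred scale. The medians of the deposited arrays were -1.23, -0.64 and -0.75 in YKH109, against 0.47 and -0.13 in YKH106 and -0.34 and -1.04 in YKH108, and these offsets entered the deviation of every gene. The median deviation became -0.39, the median standard error 0.598 against 0.284 on the centred scale, and 4696 genes lay below 0 and 768 above. The 95% intervals were too wide for any gene to be placed, and all 5464 were unresolved. The array offsets shifted the deviation of genes with a value on every array by a constant, so the signs of the 63 genes, whose deviations were larger than that shift, could not turn. The smallest upward deviation among them, that of MUP1, was 0.45 on the deposited scale against 0.84 on the centred one.

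**Figure D5:**
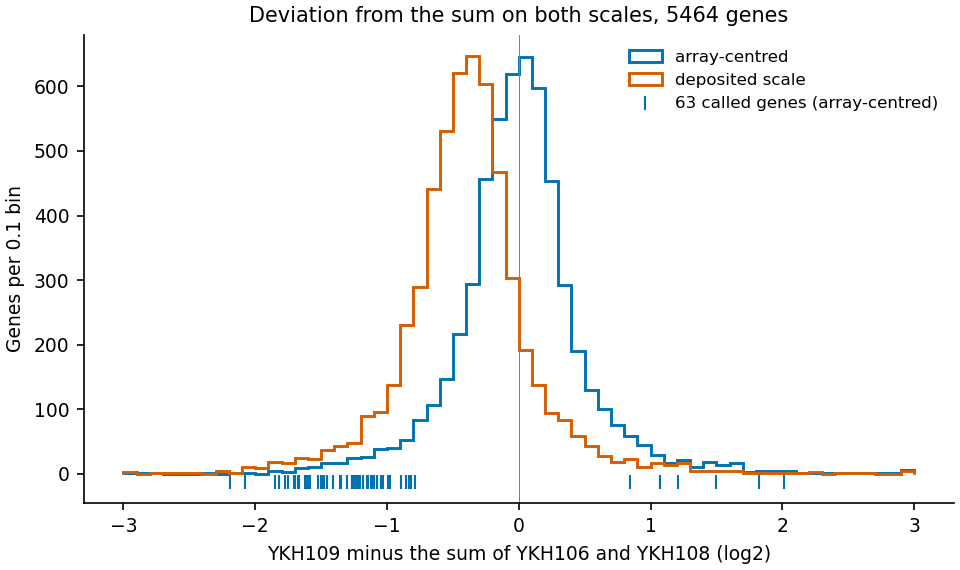
Number of genes (vertical axis) by fitted deviation of YKH109 from the sum (horizontal axis, log2, ends drawn at -3 and 3) on the centred and the deposited scale, with the 63 called genes as ticks. The median is 0.00 on the centred scale and -0.39 on the deposited scale.

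As plain values, with the median of the 3 YKH109 arrays minus the sum of the 2 means and no test, 135 genes were lower than the sum by at least 1 log2 unit and 82 were higher on the centred scale. On the deposited scale 363 were lower and 34 higher. Among the 2366 genes whose centred sum was at least 0.5 in size, 26 were beyond it by at least 1, 131 were short of it by at least 1, and 2209 lay within 1. Among the 3091 genes with a deposited sum of that size, 134 were beyond, 102 short and 2855 within 1. The balance of beyond and short therefore depended on the scale. All 63 called genes kept the sign of their deviation in the centred plain values, which come from the same arrays, and 52 of them were past 1 in size.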

How the data were processed

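The arrays compared RNA of a strain and of YKH105 in 2 channels. The slides were imaged on a GenePix 4000A instrument and quantified in GenePix Pro 4.0, per the labels' protocols. Per spot, the authors deposited a log2 ratio of the channels, with a normalization not given in the sources used here. Of 6400 spots, 5578 carried 1 gene, 0 several and 822 none. Names were matched to the supplied RefSeq gene table for 5573 spots, and 5 kept the platform's name. Spots of a gene were averaged, which gave 5547 genes.

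Each array was centred on its median. limma 3.58.1 in R 4.3.3 (lmFit, eBayes) fitted 21 arrays, with 1 term per strain and temperature and 1 gene-wise dye term, with 9 residual and 2.90 prior degrees of freedom. Of the series' arrays, 2 with identical values under different strain labels were left out. The deviation was a coefficient of that model. The number of arrays limits the precision. The script was tested on simulated data.

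Alternatives were the deposited scale, a trimmed mean for centring, no dye term, YKH105 arrays only, added self arrays, the identical columns kept, other filters and spot summaries, robust variance, and each array left out. The deposited scale without YKH109 array 2 was added after seeing the data. A promoter motif comparison was planned and not run, because no promoter sequence was used here. The genes named were, among genes on all 7 arrays, the 8 largest called deviations in each direction (7 existed above the sum), the 6 largest beyond and short of a sum of at least 1, the 5 highest and lowest sums at the sum, the called extremes of each list, and SPT3, GCN5, TAF1 and SPT15. Members of small sets and genes stated as such were added after their values were seen. The comparison, rule and lists were chosen with earlier results of these data known.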

Additional observations from a re-analysis of the deposited data

How the results depend on the processing

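No paired analysis was possible because the labels give no replicate numbers, and the strain was in channel 1 on the first array of each group and in channel 2 on the others, so that a pairing cannot be separated from the dye term. Of the 63 called deviations, 56 lower and 7 higher, the deposited scale left 0, with or without YKH109 array 2. The arrays against YKH105 alone called 35 (31 lower, 4 higher), and keeping the identical columns called 34 (30 lower, 4 higher). Fewer arrays enter the fit with YKH105 alone, and the cause of the other changes was not tested. Without the dye term 4 genes were higher. With each array left out the calls ranged from 11 to 58, with 10 to 46 lower and 1 to 15 higher. The comparison of YKH109 with YKH108 called 287 genes, 12 on the deposited scale, 14 there without YKH109 array 2, and 118 to 308 with each array left out. Among classes, 9 genes were beyond, 36 short and 18 near 0. These became 17, 17 and 29 with the direction from the mean of the YKH109 effect and the sum, 2, 19 and 42 with a minimum sum of 1, and 0, 0 and 0 on the deposited scale, where 0 were at the sum and 5464 unresolved. With the 1.5-fold margin 772 were at the sum and 4629 unresolved. The other alternatives kept these counts within 1.5 times. All 63 signs held with each array left out, which was largely fixed in advance because the genes were called on the same arrays.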

Other observations

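The seripauperin genes, a subtelomeric family of cell wall proteins with near-identical members, had a median effect below 0 in each strain. Of 23 tested, 13 were called lower in YKH109, against 27.9% of all genes, and 1 was called higher, against 25.1%. In YKH106 0 were called, against 1.1% of all genes, and in YKH108 12 were called lower, against 20.1%. The median effect was -0.63 in YKH109, -0.38 in YKH106 and -0.91 in YKH108, against a median sum of -1.29. The deviation was above 0 in 22 of them, with a median of 0.54 (0.78 without YKH109 array 2) and of 0.14 on the deposited scale, and none was called. Of the 23, 2 were at the sum, against 60.2% of all genes, and the others were unresolved. Seripauperin spots may bind transcripts of several members, so the genes are not separate measurements. The 32 cell wall mannoprotein genes had a median effect of 0.11 in YKH109 against a median sum of -0.31, and no call. Their median deviation was 0.36 (0.60 without YKH109 array 2) and became -0.03 on the deposited scale. Of the 32, 3 were at the sum, against 60.2% of all genes, and the others were unresolved.

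Lists with a median deviation below 0 included the 66 mitochondrial ribosomal protein genes, with 49 below 0 and a median of -0.12, and the 61 amino acid biosynthesis genes, with 50 below 0 and a median of -0.25. Of the 11 histone genes, 8 were below 0, the median was -0.27 (-0.14 without YKH109 array 2), and HHO1 was the 1 call. For comparison, 2719 of all 5464 genes were below 0. Beside the called genes, SLH1, a putative RNA helicase, had values of 2.29, 2.79 and 2.36 in YKH109, against -0.04 and 0.25 in YKH106 and 3.16 and 3.67 in YKH108, and was chosen after its values were seen. All YKH109 arrays were below both YKH108 arrays, and the deviation of -1.05 ± 0.34 was not called (limma adjusted p = 0.271).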
